A study of Mus musculus with 46 samples.

Results

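GSK2033, a synthetic antagonist of the liver X receptors (LXR), was compared with Vehicle in mouse bone marrow-derived macrophages (BMDM), cells grown in culture from bone marrow. The comparison took in the 5 GSK2033 libraries and the 6 Vehicle libraries, 11 of the 46 libraries of the series, chosen by treatment alone, and all 13838 genes that passed a filter on low counts. The study asked how ligands of LXR and of the estrogen receptors (ER) act on these cells. The groups also used here, each with 5 libraries, were 27HC, the oxysterol 27-hydroxycholesterol, GSK2033 + 27HC, GW3965, a synthetic LXR agonist, and ICI, which the labels name no further. No group carries a transgene or deletion in the labels, and every group is the same cell type. Doses, exposure times, mouse strain, age and sex are not given in the sources used here, nor is it said if the replicates are different mice, dishes or only preparations. The p-values therefore weigh effects against the variation among these libraries alone, and that variation may be technical.

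LXR alpha and LXR beta are nuclear receptors that bind DNA together with RXR. Oxysterols, which build up when a cell holds much cholesterol, switch them on, and their targets then send cholesterol out of the cell, load lipoproteins and make unsaturated fatty acids and phospholipids. In macrophages ligand-bound LXR are also known to dampen inflammatory and interferon-driven genes, and an antagonist blocks their activation. The opposite arm of sterol control is SREBP2, which raises cholesterol synthesis and uptake when sterols are scarce.

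Levels are TMM-scaled CPM, counts per 1000000 counts of the library, which do not correct for gene length, so levels are compared between groups for 1 gene and not between genes. Differences are log2 fold changes of GSK2033 over Vehicle with their standard error (SE), and a gene is called where the adjusted p of edgeR's quasi-likelihood test, over all 13838 genes, is under 0.05. Of these genes 2542 (18.4%) were called higher with GSK2033 and 2483 (17.9%) lower, 36.3% together, while the median difference of all genes was -0.01. Every count of list members called in this comparison is to be read beside these shares. At least 2-fold differences were rarer, with 120 genes (0.867%) higher and 128 (0.925%) lower. The 2 groups did not overlap in any library for 22.9% of all genes. Total estimated counts ran from 19895062 to 26037620 over the 11 libraries, and the first principal component, with 26.9% of the variance, separated the groups. On the second, with 9.41%, GSK2033 replicate 5 lay at 20.1 against -11.3 to 2.753 for the other 4, and Vehicle replicates 3 and 6 lay at -18.2 and -15.9 against 2.496 to 15.2 for the other 4; leaving out any 1 library gave 2372 to 2531 genes higher and 2267 to 2421 lower. Mitochondrially encoded transcripts took 1.28 to 1.48% of the counts with GSK2033 and 1.43 to 1.68% with Vehicle.

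Genes that LXR activate in macrophages were lower with GSK2033 alone. Of 21 tested members of a list of 23 LXR targets, 18 were lower and 2 higher, against 17.9% and 18.4% of all genes, and the median of the list was -0.72. Abcg1, Eepd1 and Abca1, all linked to cholesterol export, had the largest falls of the list, at 30.6-fold, 6.15-fold and 5.52-fold below Vehicle. The drop was smaller for Srebf1, at 1.38-fold, and the receptor gene Nr1h3 rose 1.63-fold.

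The 3 promoters below hold the same LXR response element, and are shown because their genes serve cholesterol export (Abca1) and lipid synthesis (Srebf1, and Fasn of the fatty acid synthesis list). Each line gives bases upstream of a RefSeq start in GRCm38.p6, 5′ to 3′ on the strand of the gene, with the element (TGACCG, any 2 bases, AGTAACC) in capitals.
Abca1, chr4:53159908-53160002, minus strand: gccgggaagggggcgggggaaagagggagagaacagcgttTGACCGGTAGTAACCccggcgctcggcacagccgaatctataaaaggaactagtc
Srebf1, chr11:60210599-60210693, minus strand: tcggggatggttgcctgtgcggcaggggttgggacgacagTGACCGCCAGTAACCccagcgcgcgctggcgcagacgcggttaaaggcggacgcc
Fasn, chr11:120824718-120824797, minus strand: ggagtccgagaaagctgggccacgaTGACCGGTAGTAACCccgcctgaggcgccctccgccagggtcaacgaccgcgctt
The element begins 67 bases before the start of Abca1, 182 before a start of Srebf1 and 225 before that of Fasn. This start of Srebf1 lies inside the gene as annotated, and the counts per gene are not split by start. Its letters follow the element of the Abca1 promoter. The spelling of this and of every motif below was chosen after others had been tried. A search of both strands of the 250 bases before 32851 RefSeq starts found it in 3 windows (0.00913%), those shown. A separate pattern, GGTCA and GGTCA with any 4 bases between them, was in 15 windows (0.0457%) and in none of the 20 windows of 14 LXR target genes. Its spacing differs from that of the element shown, so it could not match that element and is no test of LXR repeats. A match here and below describes letters and is not a site shown to be bound.

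Abca1 (ENSMUSG00000015243, chr4:53030787-53159895, minus strand) encodes the transporter that loads cholesterol onto apolipoprotein A-I. It measured 345 to 429 CPM (median 397) in the 6 Vehicle libraries and 71.0, 80.6, 63.1, 79.6 and 62.0 in the 5 GSK2033 libraries (log2 fold change -2.46 ± 0.070 (SE), adjusted p = 2.11e-29). Abcg1 (ENSMUSG00000024030, chr17:31057675-31117988, plus strand), which passes cholesterol to HDL particles, measured 35.1 to 52.8 CPM (median 38.4) with Vehicle and 1.66, 1.07, 1.49, 1.18 and 1.31 with GSK2033 (log2 fold change -4.94 ± 0.13 (SE), adjusted p = 6.42e-31). For both transporters every GSK2033 library lay far below every Vehicle library, and Abcg1 was left near 1 CPM. Arl4c, a small GTPase linked to cholesterol efflux, went from a Vehicle median of 244 CPM (232 to 248) to 94.0, 95.7, 95.7, 97.4 and 93.5 (log2 fold change -1.34 ± 0.022 (SE), adjusted p = 1.58e-39). Its spread within each group was narrow beside the gap between them.

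Mylip (ENSMUSG00000038175, chr13:45389742-45412022, plus strand) encodes the ubiquitin ligase IDOL, which limits the uptake of lipoprotein cholesterol. Vehicle libraries held 32.6 to 37.2 CPM (median 35.8) of it, and GSK2033 libraries held 7.07, 6.59, 6.55, 7.77 and 6.58 (log2 fold change -2.34 ± 0.046 (SE), adjusted p = 2.19e-36). Eepd1, an LXR target tied to cholesterol efflux, was at 12.4 to 15.2 CPM (median 14.2) with Vehicle against 2.38, 2.25, 2.09, 2.49986 and 2.06 with GSK2033 (log2 fold change -2.62 ± 0.071 (SE), adjusted p = 6.42e-31). Neither gene had overlapping groups.

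All 4 tested members with roles in fatty acid and phospholipid synthesis were lower. Scd2 (ENSMUSG00000025203, chr19:44293674-44306864, plus strand), a desaturase that makes monounsaturated fatty acids, measured 51.5 to 58.9 CPM (median 54.3) with Vehicle and 14.7, 17.8, 16.5, 16.9 and 18.5 with GSK2033 (log2 fold change -1.70 ± 0.048 (SE), adjusted p = 3.46e-30). Srebf1 (ENSMUSG00000020538, chr11:60199089-60222581, minus strand), the transcription factor gene of fatty acid synthesis, measured 65.8 to 74.6 CPM (median 70.0) and 49.3, 49.8, 50.02, 51.9 and 51.0 (log2 fold change -0.47 ± 0.050 (SE), adjusted p = 1.37e-10). The groups were apart for both, with a gap for Srebf1 that was narrow but clear of the spread. Lpcat3, which places polyunsaturated chains in phospholipids, fell by 0.76 ± 0.036 on the log2 scale (adjusted p = 7.90e-22), and Fasn, the fatty acid synthase, which is not on this list, fell by 0.77 ± 0.11 (adjusted p = 2.27e-07). Exons of Emg1 on the opposite strand cover 10.2% of the exon bases of Lpcat3, and Emg1 stood at 39.6 CPM with Vehicle and 44.4 with GSK2033.

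Among 5 tested genes of lipoproteins and their remodelling, 4 were lower. Apoe, the apolipoprotein that macrophages secrete with cholesterol, went from a Vehicle median of 6067 CPM (5292 to 6584) to 4405, 4328, 4231, 3787 and 3963 (log2 fold change -0.53 ± 0.055 (SE), adjusted p = 9.09e-11). Lpl, which hydrolyses triglycerides of lipoproteins, fell by 0.72 ± 0.047 (adjusted p = 6.39e-17), and Pltp, which moves phospholipids between lipoproteins, by 0.64 ± 0.033 (adjusted p = 2.29e-20). Of the exon bases of Pltp, 19.3% lie under exons of Ctsa on the opposite strand, which stood at 1128 CPM with Vehicle and 1048 with GSK2033, and whether the counting used strand is not given in the sources used here. The member not called, Apoc1, stayed under 0.5 CPM in every library of both groups.

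The 2 members called higher were Nr1h3 and Cd5l. Nr1h3 (ENSMUSG00000002108, chr2:91184061-91202834, minus strand), the gene of LXR alpha, measured 65.8 to 74.6 CPM (median 71.9) with Vehicle and 115, 115, 117, 114 and 119 with GSK2033 (log2 fold change 0.70 ± 0.058 (SE), adjusted p = 9.36e-14), with no overlap. Cd5l, a secreted regulator of lipid synthesis, had overlapping groups and a small difference (log2 fold change 0.12 ± 0.046 (SE), adjusted p = 0.0394), and its adjusted p ran from 0.000352 to 0.135 when 1 of the 11 libraries was left out, over 0.05 in 9 of the 11 cases. Those 9 left out GSK2033 replicate 1, 3, 4 or 5, or Vehicle replicate 1, 2, 3, 5 or 6. Nr1h2, the gene of LXR beta, was higher by 0.11 ± 0.036 on the log2 scale (adjusted p = 0.0116) with overlapping groups, and without GSK2033 replicate 4 the adjusted p was 0.0532. Of their partners, Rxra (adjusted p = 8.08e-06) fell by 0.15 ± 0.027 and Rxrb (adjusted p = 2.08e-05) by 0.18 ± 0.034. Esr1, the gene of ER alpha, was not called (log2 fold change 0.07 ± 0.10 (SE), adjusted p = 0.643), and Esr2, the gene of ER beta, was under 0.3 CPM in every library and was not tested.

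**Figure D1:**
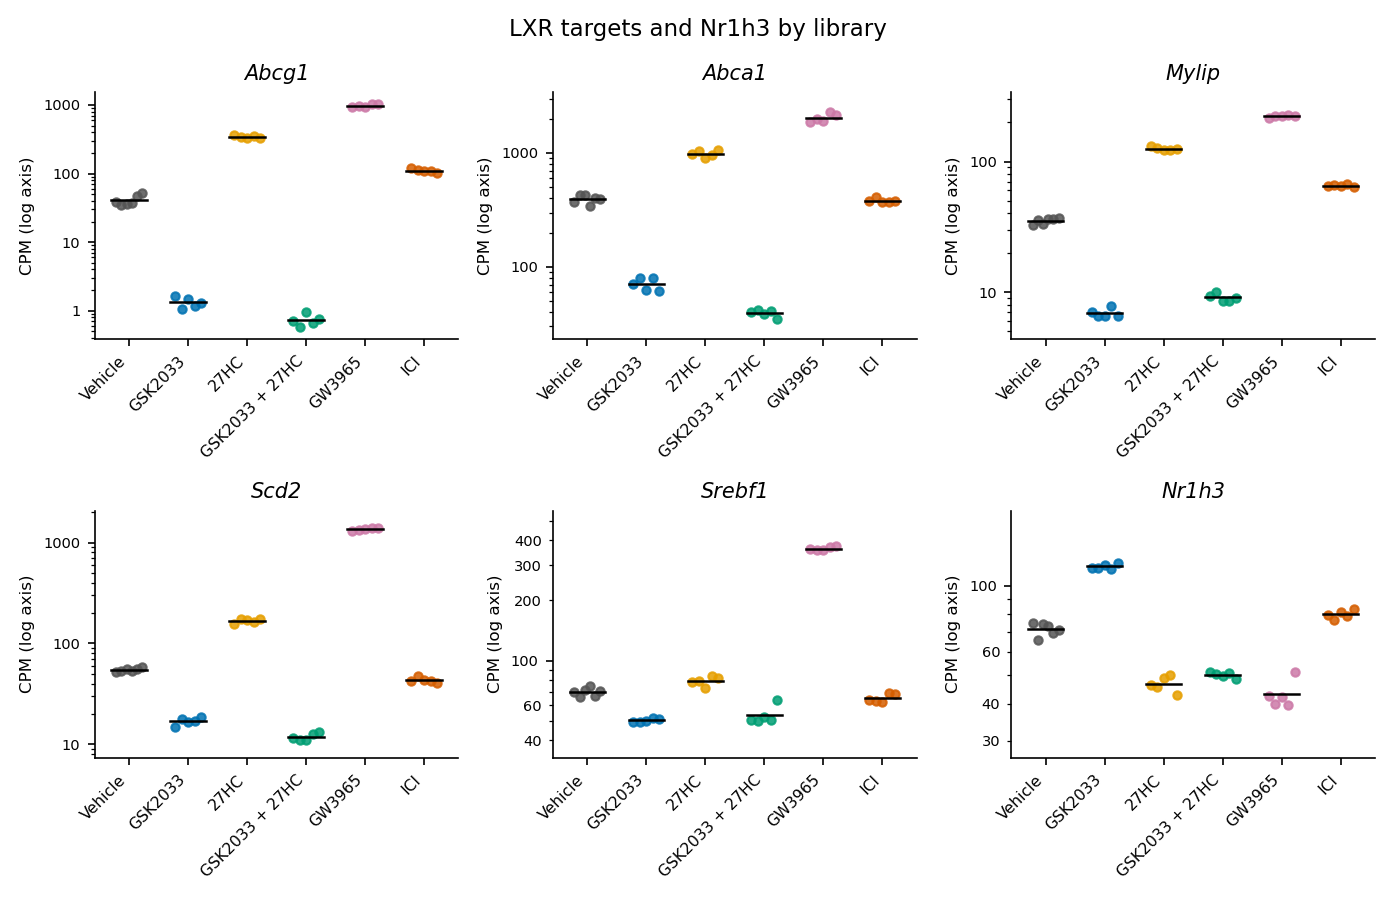
CPM (log axis) of Abcg1, Abca1, Mylip, Scd2, Srebf1 and Nr1h3 in each library of 6 groups; points are libraries and black lines group means. The 5 GSK2033 libraries lie below the 6 Vehicle libraries for the first 5 genes and above them for Nr1h3, and the GW3965 libraries lie on the other side of Vehicle for all 6.

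Genes of cholesterol synthesis and uptake were lower with GSK2033 as well, with no member higher. Of 20 genes of the synthesis pathway 18 were lower (median -0.77), against 17.9% of all genes. They were 8 of 8 in the mevalonate part and 10 of 12 from squalene to cholesterol. Of 10 tested genes of sterol sensing and uptake 6 were lower (median -0.51). Idi1 was 4.47-fold, Sqle 3.02-fold and Stard4 3.09-fold below Vehicle.

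Idi1, the isomerase that makes the branched unit of all isoprenoids, measured 51.5 to 60.8 CPM (median 56.3) with Vehicle and 12.8, 11.9, 12.6, 13.5 and 12.0 with GSK2033 (log2 fold change -2.16 ± 0.055 (SE), adjusted p = 5.65e-32). Sqle, which oxidises squalene, measured 45.6 to 50.5 CPM (median 49.1) and 15.99, 16.2, 16.3, 16.5 and 15.1 (log2 fold change -1.60 ± 0.051 (SE), adjusted p = 2.60e-28). For both, all 5 GSK2033 libraries lay far below the lowest Vehicle library. Hmgcs1, the synthase at the head of the mevalonate pathway, was at 72.4 to 78.4 CPM (median 75.5) against 38.9, 37.5, 36.8, 37.8 and 36.3 (log2 fold change -1.01 ± 0.038 (SE), adjusted p = 1.32e-25). The 2 genes not called were Lss (-0.36 ± 0.16, adjusted p = 0.0755) and Ebp (-0.07 ± 0.058, adjusted p = 0.407), although Lss had an adjusted p of 0.0391 without GSK2033 replicate 4.

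The Hmgcs1 promoter is shown because it was the only one of 18 windows of 15 synthesis genes with the letters TCACNCCAC, a form of the sterol regulatory element, which 1.05% of all windows hold. The element, in capitals, begins 137 bases before the RefSeq start (GRCm38.p6).
Hmgcs1, chr13:119690174-119690262, plus strand: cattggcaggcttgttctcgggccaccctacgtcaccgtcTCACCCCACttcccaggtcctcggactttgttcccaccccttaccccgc

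Insig1 (ENSMUSG00000045294, chr5:28071363-28078662, plus strand), which holds SREBP in the endoplasmic reticulum and is itself an SREBP target, measured 66.8 to 74.9 CPM (median 70.8) with Vehicle and 32.6, 29.99, 33.2, 31.2 and 32.0 with GSK2033 (log2 fold change -1.15 ± 0.035 (SE), adjusted p = 2.87e-29). All 5 GSK2033 libraries sat within a narrow band below Vehicle. Stard4, a sterol carrier, fell by 1.63 ± 0.055 (adjusted p = 2.56e-27), and Srebf2, the gene of SREBP2, by 0.95 ± 0.040 (adjusted p = 7.15e-24). The ICI libraries were low as well: Insig1 ranged over 29.96 to 32.6 CPM and Idi1 over 15.5 to 18.2 CPM with ICI. Of the genes that make oxysterols, Cyp27a1 (sterol 27-hydroxylase) fell by 0.98 ± 0.074 (adjusted p = 3.84e-15), and Ch25h (cholesterol 25-hydroxylase) went from a Vehicle median of 1.39 CPM (1.15 to 1.69) to 4.12, 3.95, 3.81, 3.91 and 3.62 (log2 fold change 1.44 ± 0.16 (SE), adjusted p = 8.18e-10).

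In fatty acid synthesis 10 of 15 tested genes were lower and 2 higher (median -0.41), against 17.9% and 18.4% of all genes. Mid1ip1, which activates acetyl-CoA carboxylase, fell by 1.247 ± 0.057 (adjusted p = 2.20e-22), Fads1, a desaturase of polyunsaturated fatty acids, by 0.41 ± 0.027 (adjusted p = 6.68e-17) and Acly, which makes cytosolic acetyl-CoA, by 0.28 ± 0.024 (adjusted p = 3.72e-13). The 2 genes called higher were Acss2, an acetyl-CoA synthetase (0.60 ± 0.12, adjusted p = 1.15e-04), and Me1, the malic enzyme (0.17 ± 0.056, adjusted p = 0.0146). The groups overlapped for Me1, whose adjusted p was 0.0596 without GSK2033 replicate 1 and 0.0516 without Vehicle replicate 1.

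Inflammatory genes were higher with GSK2033 in cells for which the labels list no inflammatory stimulus. Of 24 cytokine and chemokine genes 15 were higher and 5 lower (median 0.83), against 18.4% and 17.9% of all genes. Among them 10 of 14 chemokines were higher and 2 lower. Cxcl10 stood 5.15-fold, Ccl4 3.53-fold and Ccl3 3.29-fold above Vehicle. Outside that list, the lectin receptor gene Clec4e was 3.08-fold and the itaconate enzyme gene Acod1 2.67-fold higher.

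Cxcl10, a chemokine for T cells, measured 10.3 to 12.6 CPM (median 12.2) with Vehicle and 63.4, 54.0, 66.7, 58.4 and 60.8 with GSK2033 (log2 fold change 2.36 ± 0.13 (SE), adjusted p = 1.54e-19). Ccl3, which draws monocytes and T cells, measured 44.3 to 59.0 CPM (median 50.03) and 173, 173, 176, 160.0 and 162 (log2 fold change 1.72 ± 0.075 (SE), adjusted p = 6.08e-23). The lowest GSK2033 library lay well above the highest Vehicle library in each case. Ccl4, its neighbour in the genome and in function, rose from a Vehicle median of 28.9 CPM (25.9 to 31.0012) to 98.7, 102, 109, 89.9 and 103 (log2 fold change 1.82 ± 0.052 (SE), adjusted p = 3.46e-30). Il1rn, the secreted antagonist of the interleukin-1 receptor, rose by 1.36 ± 0.065 (adjusted p = 1.18e-21).

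Cxcl2, a neutrophil chemokine, rose from a Vehicle median of 23.1 CPM (21.3 to 29.9) to 54.8, 57.1, 54.3, 53.7 and 54.0 (log2 fold change 1.16 ± 0.11 (SE), adjusted p = 9.16e-12), with no overlap. Its promoter is shown as 1 of 5 among 17 list genes with a promoter in the RefSeq table (with Csf1, Cxcl1, Cxcl3 and Il6) to hold GGGA, any 1 base and TTTCC, a form of the NF-kB site found in 0.356% of all windows. The site, in capitals, begins 97 bases before the start (GRCm38.p6).
Cxcl2, chr5:90903762-90903851, plus strand: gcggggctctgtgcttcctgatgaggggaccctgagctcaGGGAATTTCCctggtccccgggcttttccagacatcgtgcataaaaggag

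The 5 members called lower were the interleukin-1 genes Il1b (-0.64 ± 0.15, adjusted p = 6.05e-04) and Il1a (-0.69 ± 0.18, adjusted p = 0.00158), the anti-inflammatory cytokine gene Il10 (-0.59 ± 0.20, adjusted p = 0.0186) and the chemokine genes Ccl6 (-0.85 ± 0.064, adjusted p = 5.82e-15) and Ccl9 (-0.82 ± 0.050, adjusted p = 5.33e-18). Il10 was near 1 CPM with overlapping groups, and its adjusted p was 0.0720 without GSK2033 replicate 2, 0.0676 without GSK2033 replicate 3 and 0.0524 without Vehicle replicate 4. Il1b ran over 139 to 205 CPM (median 153) with Vehicle and 112, 128, 95.8, 109 and 87.4 with GSK2033. Both interleukin-1 cytokine genes were thus lower while that of their antagonist rose.

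Of 8 tested acute phase and effector genes 4 were higher and 1 lower, against 18.4% and 17.9% of all genes. Nos2, the inducible nitric oxide synthase, had the largest rise among annotated genes with a mean of at least 1 CPM and no overlap between the groups. Its level stayed low, at 0.150 to 0.564 CPM (median 0.350) with Vehicle and 2.67, 2.09, 2.14, 2.27 and 1.46 with GSK2033 (log2 fold change 2.57 ± 0.45 (SE), adjusted p = 6.68e-06). Ptgs2 and Ptges, the cyclooxygenase and synthase of prostaglandin E2, rose by 0.75 ± 0.063 (adjusted p = 1.46e-13) and 1.07 ± 0.096 (adjusted p = 1.34e-12), and Lcn2, an iron-binding lipocalin, by 0.96 ± 0.15 (adjusted p = 1.22e-06). The 1 gene lower was Saa3, an acute phase protein (-0.68 ± 0.15, adjusted p = 2.55e-04).

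Clec4e (ENSMUSG00000030142, chr6:123281789-123289870, minus strand), which encodes Mincle, a receptor for mycobacterial glycolipids and dead cells, measured 162 to 216 CPM (median 183) with Vehicle and 615, 598, 553, 597 and 531 with GSK2033 (log2 fold change 1.62 ± 0.080 (SE), adjusted p = 1.11e-20). Acod1, which makes itaconate in activated macrophages, measured 93.2 to 129 CPM (median 103) and 312, 293, 291, 302 and 260.3 (log2 fold change 1.42 ± 0.12 (SE), adjusted p = 4.47e-13). Neither had overlapping groups. Hcar2, a receptor for niacin and ketone bodies, rose by 2.17 ± 0.12 (adjusted p = 4.58e-19) and Ccrl2, a receptor that binds chemerin, by 1.69 ± 0.089 (adjusted p = 2.37e-20). In signalling, 10 of 19 genes of NF-kB and Toll-like receptor signalling were higher and 4 lower, against 18.4% and 17.9% of all genes. Their differences were smaller (median 0.12). The receptor gene Tlr2 rose by 0.59 ± 0.046 (adjusted p = 1.62e-14), and the NF-kB inhibitor genes Nfkbie by 0.64 ± 0.050 (adjusted p = 1.89e-14) and Tnfaip3 by 0.52 ± 0.048 (adjusted p = 2.72e-12).

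Interferon-stimulated genes rose together by smaller steps. Of 29 genes 26 were higher and 1 lower (median 0.50), against 18.4% and 17.9% of all genes, with 22 of 24 antiviral effectors higher. Rsad2, Isg15 and Ifit1 stood 2.06-fold, 1.91-fold and 1.78-fold above Vehicle. Rsad2, which encodes viperin, measured 95.6 to 112 CPM (median 102) with Vehicle and 216, 198, 218, 209 and 214 with GSK2033 (log2 fold change 1.04 ± 0.048 (SE), adjusted p = 1.73e-22). Ifit1, which binds foreign RNA caps, measured 117 to 137 CPM (median 124) and 234, 225, 226, 214 and 213 (log2 fold change 0.83 ± 0.056 (SE), adjusted p = 1.32e-16). Every GSK2033 library lay above every Vehicle library for both. Isg15, a ubiquitin-like modifier, rose by 0.94 ± 0.057 (adjusted p = 4.10e-18), and Usp18, which removes it from proteins, by 0.67 ± 0.053 (adjusted p = 1.68e-14). The 1 gene lower was Irf7, a transcription factor that amplifies interferon, at 1109 to 1203 CPM (median 1185) with Vehicle and 1089, 1066, 1098, 998 and 1021 with GSK2033 (log2 fold change -0.15 ± 0.042 (SE), adjusted p = 0.00389). Mx2 (0.42 ± 0.22, adjusted p = 0.127) and Oasl2 (0.05 ± 0.044, adjusted p = 0.382) were not called.

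The Rsad2 promoter is shown because 13 of 26 windows of interferon list genes, against 2.98% of all windows, hold GAAA, any 2 bases and GAAA, the core of the interferon-stimulated response element. In Rsad2 it lies on the opposite strand, in capitals, 120 bases before the start (GRCm38.p6).
Rsad2, chr12:26456523-26456612, minus strand: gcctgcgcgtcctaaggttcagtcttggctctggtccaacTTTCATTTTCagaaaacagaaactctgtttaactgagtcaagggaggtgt

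Antigen presentation by MHC class I followed the same direction, with 14 of 15 genes higher and 0 lower (median 0.35), against 18.4% and 17.9% of all genes. H2-Q7, a nonclassical class I chain, rose from a Vehicle median of 65.6 CPM (58.6 to 66.9) to 151, 160.0, 161, 144 and 153 (log2 fold change 1.26 ± 0.051 (SE), adjusted p = 2.67e-24). Psmb8, a subunit of the immunoproteasome, rose by 0.49 ± 0.036 (adjusted p = 2.10e-15), and Tap1, which carries peptides into the endoplasmic reticulum, by 0.51 ± 0.046 (adjusted p = 2.14e-12). H2-M2, a class I chain outside the list, had one of the largest rises, 4.89-fold (log2 fold change 2.29 ± 0.070 (SE), adjusted p = 5.41e-29). H2-Q4 rose by 0.84 ± 0.043 (adjusted p = 1.20e-20). Reads of H2-Q and H2-M genes can be split between near-identical copies, so their single values are uncertain. For MHC class II and co-stimulation 6 of 12 genes were higher and 2 lower, against the same 18.4% and 17.9% of all genes. Cd40, the receptor for T cell help, was 2.26-fold higher (adjusted p = 8.33e-17) and H2-Aa, a class II chain, 1.38-fold higher (adjusted p = 2.23e-09). The 2 lower were the peptide exchange genes H2-DMb2 (-0.79 ± 0.19, adjusted p = 9.11e-04) and, with overlapping groups, H2-DMa (-0.19 ± 0.057, adjusted p = 0.00749). H2-DMb2 was at a low level, with a Vehicle median of 1.27 CPM. Exons of Brd2 on the opposite strand cover 10.4% of the exon bases of H2-DMa, and Brd2 stood at 217 CPM with Vehicle and 218 with GSK2033.

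Genes of the amino acid and integrated stress response rose, 18 of 20 with none lower (median 0.65), against 18.4% higher and 17.9% lower among all genes. They included 7 of 7 genes of serine and one-carbon metabolism. Trib3, a pseudokinase induced by ATF4, was 3.58-fold higher and Slc7a11, the cystine importer, 2.99-fold higher. Chaperones of the endoplasmic reticulum (12 of 13 higher, 0 lower, median 0.44) and antioxidant genes driven by NRF2 (10 of 12 higher, 1 lower, median 0.40) moved the same way.

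Atf4 (ENSMUSG00000042406, chr15:80255184-80257541, plus strand), the transcription factor of this response, measured 119 to 131 CPM (median 123) with Vehicle and 229, 232, 235, 218 and 230.3 with GSK2033 (log2 fold change 0.89 ± 0.027 (SE), adjusted p = 2.87e-29). Trib3 measured 9.31 to 12.2 CPM (median 10.7) and 35.6, 37.6, 39.7, 37.4 and 42.3 (log2 fold change 1.84 ± 0.051 (SE), adjusted p = 1.95e-30). The groups were far apart for both. Mthfd2, an enzyme of mitochondrial folate metabolism, rose by 0.96 ± 0.033 (adjusted p = 7.37e-27), and Slc3a2, the partner chain of several amino acid transporters, by 0.64 ± 0.028 (adjusted p = 1.54e-23). Gdf15, a stress cytokine outside the list, rose by 1.94 ± 0.047 (adjusted p = 1.00e-32). Not called were Atf3 (0.03 ± 0.051, adjusted p = 0.675) and Ddit4 (0.06 ± 0.053, adjusted p = 0.387), which other stresses also induce.

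Slc7a11 measured 31.6 to 45.3 CPM (median 39.2) with Vehicle and 128, 119, 113, 124 and 111 with GSK2033 (log2 fold change 1.58 ± 0.077 (SE), adjusted p = 2.68e-21). Its promoter is shown because it holds TGATGCAA, a form of the ATF4 element, 2 times, once on each strand (in capitals). The match farther from the start begins 66 bases before it (GRCm38.p6). Windows of 5 of 18 genes of the list (with Atf3, Chac1, Pycr1 and Vldlr) hold these letters, against 0.792% of all windows.
Slc7a11, chr3:50443614-50443719, minus strand: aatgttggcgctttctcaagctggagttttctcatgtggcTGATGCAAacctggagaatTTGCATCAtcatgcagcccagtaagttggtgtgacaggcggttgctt

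Hspa5, the main chaperone of the endoplasmic reticulum, rose from a Vehicle median of 764 CPM (738 to 787) to 1247, 1225, 1239, 1165 and 1184 (log2 fold change 0.66 ± 0.022 (SE), adjusted p = 4.78e-28). Creld2 rose by 0.63 ± 0.040 (adjusted p = 8.49e-18) and Hyou1 by 0.48 ± 0.026 (adjusted p = 2.87e-20), while Dnajc3 was not called (0.03 ± 0.029, adjusted p = 0.464). Prdx1, a peroxidase, rose from a Vehicle median of 2182 CPM (2090.1 to 2253) to 3788, 3772, 3718, 3604 and 3696 (log2 fold change 0.77 ± 0.032 (SE), adjusted p = 4.18e-24). All 5 GSK2033 libraries of Hspa5 and of Prdx1 lay above all 6 Vehicle libraries. Hmox1, which degrades haem, rose by 0.43 ± 0.024 (adjusted p = 9.22e-20), Slc48a1, a haem transporter, by 0.50 ± 0.031 (adjusted p = 3.80e-18) and Srxn1, a sulfiredoxin, by 0.51 ± 0.021 (adjusted p = 6.11e-24). Osgin1 was the 1 gene of the list lower (-0.22 ± 0.054, adjusted p = 8.33e-04), with overlapping groups.

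Genes of macrophage identity and of the uptake of dying cells were mostly lower. Of 14 identity genes 9 were lower and 2 higher (median -0.29), and of 13 tested genes of efferocytosis and complement 7 were lower and 1 higher (median -0.30). Among all genes 17.9% were lower and 18.4% higher. Itgam, which encodes CD11b, measured 722 to 820.4 CPM (median 809) with Vehicle and 509, 514, 465.6, 494 and 451 with GSK2033 (log2 fold change -0.70 ± 0.036 (SE), adjusted p = 9.41e-21). The groups did not overlap, and 68.7% of the exon bases of Itgam are shared with Gm49368 on the same strand, a gene at 1.75 CPM with Vehicle and 1.40 with GSK2033. Csf1r, the receptor of the growth factor M-CSF, fell by 0.35 ± 0.021 (adjusted p = 2.28e-18) and Cebpa, a myeloid transcription factor, by 0.57 ± 0.036 (adjusted p = 1.47e-17), and 15.1% of the exon bases of Csf1r lie under Hmgxb3 on the opposite strand. The 2 identity genes higher were Cd68 (0.24 ± 0.023, adjusted p = 8.83e-12) and Cd200r1 (0.44 ± 0.037, adjusted p = 1.24e-13). Adgre1, which encodes F4/80, did not differ by the test, at 4170.3 to 4546 CPM (median 4340.1) with Vehicle and 4447, 4295, 4196, 4518 and 4243 with GSK2033 (95% interval of the log2 fold change -0.06 to 0.05, adjusted p = 0.920).

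Mertk, a receptor for dying cells that is also an LXR target, fell by 0.55 ± 0.045 (adjusted p = 3.71e-14). The complement genes C1qa, C1qb and C1qc fell by 0.30, 0.43 and 0.37 on the log2 scale (adjusted p = 1.72e-10, 1.82e-14 and 8.87e-15), while C3 was the 1 gene higher (0.23 ± 0.059, adjusted p = 0.00144). Outside these lists Cfp, which encodes properdin, fell by 1.40 ± 0.043 (adjusted p = 1.01e-28) and Cd36, a scavenger receptor, by 0.49 ± 0.026 (adjusted p = 1.88e-20). Of 11 tested myeloid genes that restrain T cells 4 were higher and 5 lower, against 18.4% and 17.9% of all genes. Cd274, which encodes PD-L1, rose by 0.72 ± 0.052 (adjusted p = 1.10e-15), and Vsir, which encodes VISTA, and Entpd1, which encodes CD39, fell by 0.70 ± 0.040 and 0.72 ± 0.047 (adjusted p = 2.97e-19 and 3.74e-17).

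Summed over the 8 macrophage markers, levels ran from 16600 to 17736 CPM with GSK2033 and from 20988 to 22935 with Vehicle, with 6 markers lower and 1 higher. Such sums, here and below, follow their most abundant members. The median log2 fold change of the 8 was -0.33, and Adgre1, 1 of them, was not called. The 9 stromal markers summed to 3718 to 4531 CPM and 4281 to 5054 CPM, with 4 of 8 tested lower and none at 0. Markers of T and NK cells summed to 21.8 to 26.2 CPM with GSK2033 and 17.1 to 20.7 with Vehicle, those of osteoclasts to 46.3 to 50.5 and 42.3 to 45.7, those of neutrophils to 8.17 to 11.5 and 11.9 to 13.4, and those of mast cells to 5.73 to 6.78 and 8.47 to 9.59. Lists for B cells, dendritic cells and red cells summed to at most 5.33 CPM in any library, and Ly6g and Elane (neutrophil) and Tpsb2 (mast cell) were at 0 in all 11. The part of these shifts in the results was not tested, and in bulk RNA fewer cells of a type and less RNA per cell cannot be told apart.

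Several of the largest single differences fell outside the lists. Abi3, an adaptor of the actin regulator WAVE, fell by 2.103 ± 0.072 (adjusted p = 4.17e-27), but 70.1% of its exon bases lie under exons of Zfp652 on the opposite strand, a gene at 52.6 CPM with Vehicle and 44.1 with GSK2033. Also on that strand, Phospho1 covers 41.1% (5.33 and 6.16 CPM) and Gngt2, itself lower, 5.63% (33.4 and 11.5 CPM). Cd38, an enzyme that consumes NAD, fell by 1.91 ± 0.14 (adjusted p = 1.18e-15) and Cytip, a regulator of integrin adhesion, by 1.89 ± 0.11 (adjusted p = 3.75e-19). Txnip, which binds thioredoxin and curbs glucose uptake, went from a Vehicle median of 472 CPM (461 to 482) to 229, 224, 225, 218 and 213 (log2 fold change -1.09 ± 0.021 (SE), adjusted p = 1.38e-36), and Rcbtb2 fell by 1.04 ± 0.038 (adjusted p = 3.56e-26). Cox6a2, a subunit of cytochrome oxidase, rose by 2.04 ± 0.18 (adjusted p = 7.22e-13) from a low level of 0.349 to 0.647 CPM (median 0.581) with Vehicle. All of these had groups apart.

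Of 24 genes of glycolysis and hypoxia 14 were higher and 3 lower (median 0.14), or 1 lower without GSK2033 replicate 2, against 18.4% and 17.9% of all genes. Slc2a1, the glucose transporter GLUT1, was higher by 0.38 ± 0.034 (adjusted p = 7.07e-13) and Pgam1 by 0.28 ± 0.021 (adjusted p = 3.97e-15). Of 13 mitochondrially encoded genes 9 were lower and 0 higher (median -0.28), and Ucp2, an inner membrane transporter, fell by 0.61 ± 0.031 (adjusted p = 8.90e-21). In the cell cycle list 3 of 30 genes were higher (10%) and 8 lower (26.7%, median -0.11), which together is near the 36.3% called among all genes, and the 8 lower became 5 without GSK2033 replicate 2 and 5 without GSK2033 replicate 4. The inhibitor genes went opposite ways, Cdkn1a higher by 0.32 ± 0.024 (adjusted p = 5.89e-15) and Cdkn1b lower by 0.53 ± 0.055 (adjusted p = 6.61e-11). Cenpf, a kinetochore gene, had the lowest value of the list (log2 fold change -2.93 ± 0.92 (SE), adjusted p = 0.00963) at a level of 0.477 to 2.82 CPM (median 1.55) with Vehicle and 0.162, 0.316, 0.0929, 0.364 and 0.1005 with GSK2033.

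**Figure D2:**
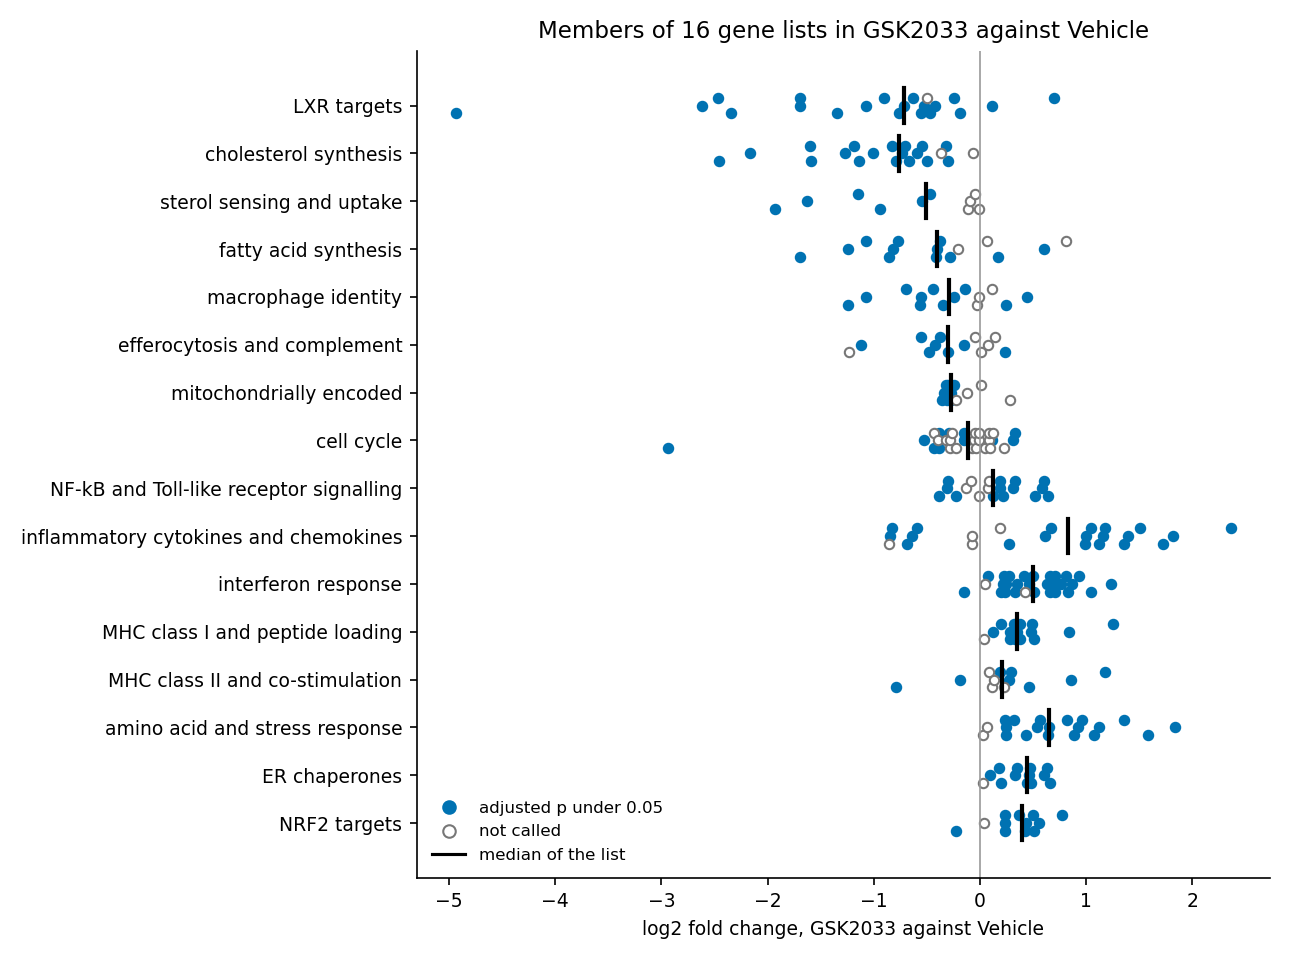
Log2 fold change of GSK2033 against Vehicle for the tested members of 16 gene lists; filled points have an adjusted p under 0.05, open points are not called, and bars are list medians. The medians of LXR targets (-0.72) and cholesterol synthesis (-0.77) lie lowest and that of inflammatory cytokines and chemokines (0.83) highest.

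The 5 GSK2033 + 27HC and 5 27HC libraries asked the same question in cells that also received the oxysterol, with no library shared with the comparison above. There 2923 genes were higher and 2998 lower (21.1% and 21.7%, 42.8% together), with 2.31% of all genes called and at least 2-fold higher and 1.84% at least 2-fold lower. Of the 2542 genes higher with GSK2033 alone, 1632 were called higher and 115 lower with 27HC present, and of the 2483 lower ones 1639 were called lower and 84 higher. Across all 13838 genes the log2 fold changes had a Pearson r of 0.486, a description over genes, which are not independent replicates. The difference between the 2 settings was itself called for 1292 genes higher (9.34%) and 1420 lower (10.3%), 19.6% together, and 0.744% were called and at least 2-fold higher and 0.426% at least 2-fold lower. Counts below of list members called with 27HC present, or called for the difference between the settings, are to be read beside these shares.

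The log2 falls of LXR targets, measured from 27HC alone, were larger when 27HC was present. Of 21 genes 20 were lower and 0 higher (median -1.29), and for 17 the effect was called lower than without 27HC. Abcg1 ran over 327 to 365 CPM with 27HC and 0.583 to 0.966 with both, a difference of -8.86 ± 0.12, which was lower than that without 27HC by 3.92 on the log2 scale (adjusted p of the difference 2.69e-14). Abca1 ran over 904 to 1057 CPM with 27HC and 34.9 to 41.7 with both, Scd2 over 156 to 176 and 11.1 to 13.1, and Mylip over 122 to 131 and 8.53 to 10.1. With both compounds all 3 lay below every Vehicle library. Set beside GSK2033 alone, the libraries with both compounds were lower for Abcg1, Abca1 and Scd2 but higher for Mylip. Nr1h3, higher with GSK2033 alone, was not called when 27HC was present (log2 fold change 0.10 ± 0.064 (SE), adjusted p = 0.205), and the difference between the settings was called (adjusted p = 5.55e-07).

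The cholesterol genes did not follow. With 27HC present 6 of 20 synthesis genes were higher and 6 lower (median 0.02), and the effect of GSK2033 was called higher than without 27HC for 17 genes and lower for 1. Idi1 ran over 9.36 to 10.7 CPM with 27HC alone and 7.70 to 9.004 with both (log2 fold change -0.29 ± 0.063 (SE), adjusted p = 2.25e-04). These levels lay under those of GSK2033 alone, and the fall was smaller than without 27HC (adjusted p of the difference 3.08e-22). Insig1 ran over 20.5 to 22.2 CPM with 27HC and 29.7 to 32.8 with both (log2 fold change 0.54 ± 0.038 (SE), adjusted p = 2.17e-16), the opposite of its fall without 27HC, and Txnip fell by 0.24 ± 0.022 (adjusted p = 6.31e-13), less than without 27HC.

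Interferon genes rose more with 27HC present: 27 of 29 were higher (median 0.87), and for 25 the effect was called higher than without 27HC. Ifit1 ran over 17.5 to 26.2 CPM with 27HC and 70.3 to 76.4 with both, and Isg15 over 23.8 to 33.6 and 85.2 to 101, so that both stayed under their Vehicle range. Of the 24 inflammatory genes 15 were higher and 6 lower (median 0.64), and the effect was called smaller or more negative for 10 and higher for 3. Ccl4 rose by 0.86 ± 0.053, less than without 27HC (adjusted p of the difference 2.82e-14), and Clec4e by 2.34 ± 0.087, more than without it (adjusted p of the difference 6.42e-06). Of the 20 stress response genes 18 were higher and 1 lower (median 0.91), with Trib3 at 66.9 to 71.1 CPM against 15.2 to 16.7.

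**Figure D3:**
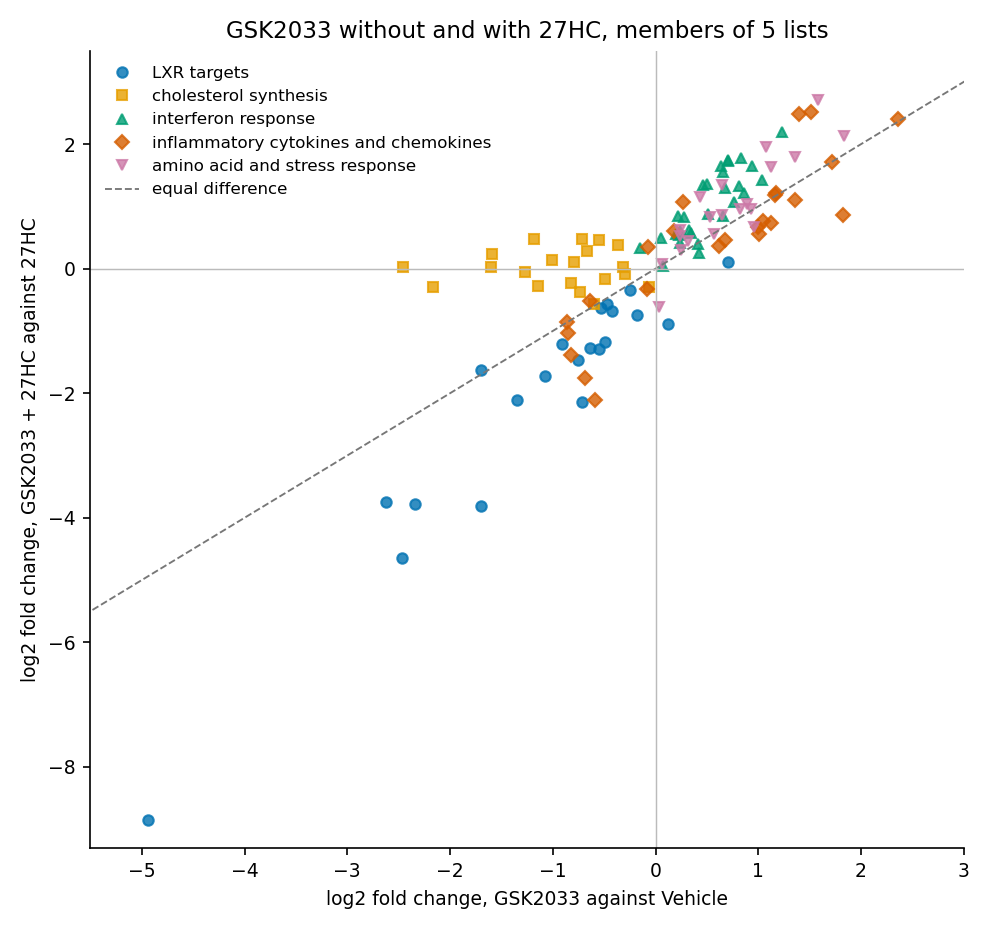
Log2 fold change of GSK2033 against Vehicle (x axis) and of GSK2033 + 27HC against 27HC (y axis) for the tested members of 5 gene lists, with a dashed line where both are equal. LXR targets lie mostly below the line, cholesterol synthesis genes lie left of 0 and mostly above the line, and interferon genes lie mostly above it.

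**Figure D4:**
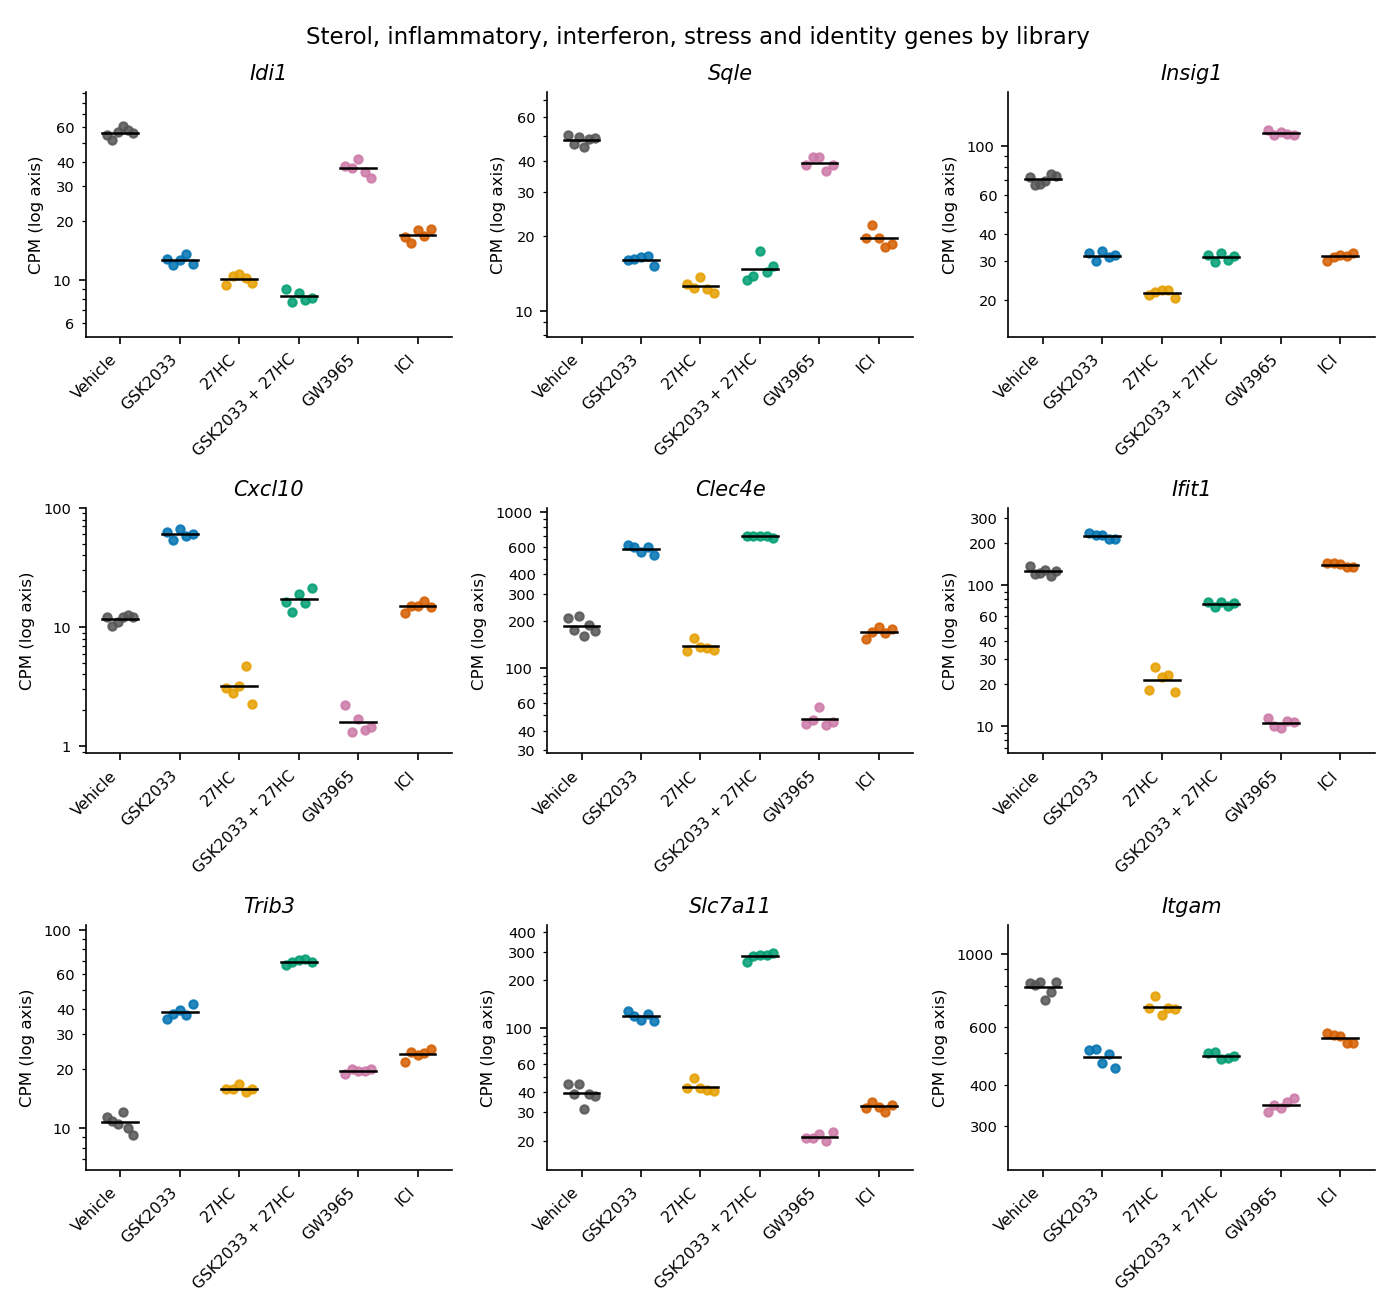
CPM (log axis) of 9 genes in each library of 6 groups; points are libraries and black lines group means. GSK2033 lies below Vehicle for Idi1, Sqle, Insig1 and Itgam and above it for Cxcl10, Clec4e, Ifit1, Trib3 and Slc7a11, and the 27HC groups lie lowest for Idi1.

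Set directly against the agonist GW3965, GSK2033 had 3134 genes higher and 3297 lower (22.6% and 23.8%), with 4.73% called and at least 2-fold higher and 2.35% called and at least 2-fold lower. LXR targets were lower for 20 of 21 genes and higher for 1 (median -2.04). Abcg1 ran over 928 to 1027 CPM with GW3965, and GSK2033 was lower by 9.50 ± 0.11 on the log2 scale (adjusted p = 3.22e-44). Scd2 was lower by 6.33 ± 0.052, Eepd1 by 5.80 ± 0.065, Mylip by 5.01 ± 0.045 and Srebf1 by 2.85 ± 0.052. All 29 interferon genes (median 3.11) and 21 of 24 inflammatory genes (median 2.62) were higher with GSK2033. Rsad2 ran over 15.6 to 19.1 CPM with GW3965, 95.6 to 112 with Vehicle and 198 to 218 with GSK2033, and Cxcl10 over 1.31 to 2.22, 10.3 to 12.6 and 54.0 to 66.7. The stress response list was split, with 8 of 20 genes higher and 8 lower (median 0.03). NRF2 targets were lower for 10 of 12 genes and higher for 1 (median -0.71). Chaperones of the endoplasmic reticulum were higher for 4 of 13 genes and lower for 5 (median 0.0006). Macrophage identity genes were higher for 10 of 14 and lower for 2 (median 0.49). Those of efferocytosis and complement were higher for 3 of 13 and lower for 6 (median -0.09).

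Against ICI, GSK2033 had 1811 genes higher and 1954 lower (13.1% and 14.1%). LXR targets were lower for 19 of 21 genes and higher for 1 (median -0.77), and inflammatory genes higher for 18 of 24 and lower for 1 (median 1.03). Mylip was lower by 3.24 ± 0.046 (adjusted p = 7.07e-42) and Arl4c by 1.03 ± 0.022 (adjusted p = 1.34e-34). Cxcl10 was higher by 2.02 ± 0.13 (adjusted p = 1.38e-16) and Clec4e by 1.75 ± 0.085 (adjusted p = 8.29e-21). The cholesterol synthesis genes were closer, with 7 of 20 lower, 1 higher and a median of -0.10. Idi1 was at 15.5 to 18.2 CPM with ICI against 11.9 to 13.5 with GSK2033 and 51.5 to 60.8 with Vehicle. Stress response genes were higher for 10 of 20 and lower for 1 (median 0.19). Chaperones of the endoplasmic reticulum were higher for 7 of 13 and lower for 3 (median 0.08). NRF2 targets were higher for 5 of 12 and lower for 1 (median 0.0039). Macrophage identity genes were higher for 4 of 14 and lower for 8 (median -0.10). The comparisons with GW3965 and ICI share the GSK2033 libraries with the one against Vehicle and are no independent repeat of it.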

How the data were processed

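RNA from mouse BMDM was sequenced from stranded polyA libraries, 46 in 1 pool over 3 lanes of a NovaSeq 6000 with single reads of 100 nt, per the labels' protocols. The deposited table holds estimated counts per gene that the authors made with kallisto 0.44.0 after bcl2fastq 2.20, on GRCm38, per the submitters' processing notes. How transcripts were summed to genes, any length correction and whether strand was used are not given in the sources used here. The table has 24671 genes; 392 without a GENCODE symbol hold 0.455% of the counts.

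Counts were rounded and tested with edgeR 4.0.16 (R 4.3.3): TMM, genes kept by filterByExpr, quasi-likelihood fit with robust spread over all 46 libraries with 1 mean per group, and Benjamini-Hochberg adjustment over 13838 genes at 0.05. One combination with GW3965 whose labels disagree on its second compound added only to the estimate of spread. The test was tried on simulated counts for GSK2033 against Vehicle over 13656 genes. It recovered 68% of 50 genes changed 1.25-fold, 88% at 1.5-fold and 100% at 2-fold, with 8 false calls among 13456 unchanged genes. The changed genes came only from those with a mean of at least 50 counts, so recovery at lower levels was not tried. The spread simulated was its trend over level and not that of each gene. Alternatives were DESeq2 1.42.0, its size factors in edgeR, other filters, only the groups compared, a replicate block, a threshold of 0.01, no mitochondrially encoded genes, and leaving out each library. No 2 replicate libraries were identical or agreed within sampling noise.

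The comparison, its gene lists and tests were chosen with earlier results of these data known. Named genes were the receptors and 4 LXR targets (Abca1, Abcg1, Mylip, Srebf1), the 10 highest and 10 lowest called log2 fold changes with a mean of at least 1 CPM and no overlap, the 6 most abundant called genes that moved at least 2-fold, and up to 4 members of each list by smallest p. Other genes named, such as the exceptions of each list and Lpcat3, Apoe, Lpl, Pltp, Fasn, Slc7a11, Cxcl2 and Cenpf, were chosen after their values were seen. Some genes that the rule names are not reported here. Motifs were searched on both strands of the 250 bases before RefSeq starts (GRCm38.p6), and gene positions are from GENCODE M21.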

Additional observations from a re-analysis of the deposited data

Results flagged for a closer look

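The effect of GSK2033 differed with and without 27HC for each of 13 named genes whose interaction was examined, by edgeR's quasi-likelihood test of the difference itself over all genes. That difference was called for 19.6% of all 13838 genes, and the 13 were picked partly by the smallest p and partly after their values were seen, so that their count says nothing about other genes. On the log2 scale the effect with 27HC minus that without was higher for Idi1 (1.88) and Insig1 (1.69), genes of cholesterol synthesis and sterol sensing. It was also higher for the interferon-stimulated genes Ifit1 (0.95) and Isg15 (0.71), for Txnip (0.85), Clec4e (0.71) and Trib3 (0.29). It was lower for the LXR targets Abcg1 (-3.92), Abca1 (-2.19), Scd2 (-2.11) and Mylip (-1.44), for the receptor gene Nr1h3 (-0.60) and for the chemokine gene Ccl4 (-0.96). The adjusted p was 0.0023 for Trib3 and smaller for the other 12.

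In 10 of 244 groups of values examined, 1 library lay far from the others of its group; chance gives about 1 in 20. Vehicle replicate 4 was highest for Cd5l (124 CPM, group median 103) and Tnfaip3 (48.2 CPM) and lowest for Srxn1 (150.3 CPM). Vehicle replicate 6 was highest for Esr2 (0.201 CPM) and Vehicle replicate 5 for H2-DMb2 (1.80 CPM). GSK2033 replicate 4 was lowest for Mid1ip1 (13.9 CPM) and C1qb (1512 CPM) and highest for Fads1 (91.8 CPM). GSK2033 replicate 1 was highest for C3 (1251 CPM) and GSK2033 replicate 3 lowest for Cytip (8.36 CPM).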

How the results depend on the processing

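Counts of genes called moved by less than 1.5 times under the alternatives tried except 1: the interaction gave 823 genes higher at an adjusted p under 0.01, against 1292. With 1 library left out, GSK2033 against Vehicle gave 2372 to 2531 genes higher and 2267 to 2421 lower. Among lists, LXR targets called higher were 1 with no filter, with only the groups compared and at 0.01, and 1 to 2 with a library left out. Fatty acid synthesis genes called higher were 1 with only the groups compared and at 0.01, and 1 to 3 with a library left out. At 0.01, 5 cell cycle genes and 1 gene of glycolysis and hypoxia were lower, and with a library left out 5 to 8 and 1 to 3. With a mean of at least 1 CPM the median was -0.22 for efferocytosis and -0.0088 for T cell-inhibiting genes, which ran from -0.37 to -0.0057 with a library left out, while ER chaperones ran from 0.42 to 0.46. The cause was not tested. Genes that changed sign were not called under any setting in which they did: Adgre1 (0.00098 with DESeq2 size factors in edgeR, 0.00069 with DESeq2, -0.017 to 0.0082 with a library left out) and Esr1 (-0.023 to 0.13). With only the groups compared, Lss and Mx2 were called lower and higher (adjusted p = 0.0193 and 0.0408, edgeR). The mitochondrially encoded list has no value without those genes. With a replicate block GSK2033 against Vehicle gave 2512 genes higher and 2494 lower. Same-numbered libraries correlated by -0.021 to 0.0772, 2 of 5 best with their own number. For GSK2033 + 27HC and 27HC they correlated by 0.0148 to 0.0706, 4 of 5 best, and the block gave 3032 genes higher and 3094 lower. With ICI 3 of 5 and with GW3965 1 of 5 were best. No correlation reached the 0.1 asked for, so the number was not taken as a pairing. Whether it marks a shared batch was not tested. Genes near 1 CPM or below rest on few counts.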
